A study of Homo sapiens with 72 samples.

Results

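IMR-90 human lung fibroblasts that shared a dish with α-particle-irradiated cells, called bystander cells, were compared with sham-irradiated control cells 24 hours after exposure. The comparison rests on 8 of the 72 arrays of the series, the 4 labelled bystander at 24 hours and the 4 labelled control at 24 hours, paired by the replicate number, which stands for an experiment. The p-values, standard errors and intervals come from a fit that also holds the 4 irradiated arrays of 24 hours, 12 arrays in all. IMR-90 is a strain of normal fibroblasts from fetal lung that grows in culture for a limited number of divisions. The series covers control, irradiated and bystander cells at 6 time points in 4 experiments, and the arrays of 24 hours lay on 3 slides. The question of the comparison is which transcripts still differ a day later in cells that no particle crossed. Irradiated cells received 0.5 Gy of α-particles through the thin outer base of the dish. Bystander cells sat on an inner base that shielded them and shared the medium, and control dishes were handled in the same way without beam. The cells of an experiment came from 1 pool, so the experiments share 1 strain, and no other donor was measured.

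The bystander response is the reaction of unirradiated cells to signals from irradiated neighbours, carried through gap junctions and through secreted factors in the medium. In fibroblasts these signals are known to engage NF-kB, a transcription factor held in the cytoplasm by inhibitor proteins until inflammatory receptors release it, and the mitogen-activated kinases that feed the AP-1 transcription factors. Both control genes for cytokines, prostaglandin synthesis and matrix-degrading proteases, while quiescent fibroblasts otherwise express collagens and contractile proteins.

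Apart from controls, an array held 43376 spots, which represent 41000 probes. Between 67.1% and 75.5% of the spots were well above background on the control arrays, and between 69.5% and 74.3% on the bystander arrays. No spot was saturated on these 8 arrays. Values are scaled log2 intensities, on which each array has its 75th percentile at 10, so a difference of 1 is a doubling and levels of different probes are not compared. The filter on dim probes left 25246 probes, and 13146 genes with a symbol, each represented by its brightest probe. The number of arrays limits the precision.

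The 8 arrays carried the markers of fibroblasts. All 12 of the fibroblast markers were well above background on 8 of 8 arrays, and the brightest probe of the list was that of COL1A2, a chain of type I collagen. In unlogged scaled intensity the 12 markers summed to 724000, 840800, 447300 and 527900 on bystander arrays 1 to 4, and to 1066000, 797700, 673200 and 900500 on control arrays 1 to 4, so the bystander sum was below its control in 3 of 4 experiments. The leukocyte markers PTPRC, CD3D, MS4A1, LYZ and HLA-DRA were well above background on 0 of 8 arrays, as were the epithelial markers CDH1 and KRT5 and the endothelial markers PECAM1 and EMCN. Of the other lists, 4 of 12 leukocyte, 7 of 12 epithelial and 6 of 10 endothelial markers were detected on all 8 arrays, with the brightest probes for CD68, KRT18 and TEK. The leukocyte markers summed to between 965 and 1239 on the bystander arrays and to between 724 and 1076 on the control arrays, and the bystander sum lay above its own control in 4 of 4 experiments. The epithelial sums ran from 5182 to 11160 and from 6304 to 11040, and the endothelial sums from 4882 to 8375 and from 4103 to 7861. The endothelial sum lay above its control in 4 of 4 experiments and the epithelial sum in 1 of 4, and the part of these differences in the results was not tested. In bulk samples of this kind, fewer cells of a type and less RNA per cell cannot be told apart.

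Several arrays did not sit with their own experiment. Over the 25246 probes the bystander array of experiment 2 correlated at 0.993 with the bystander array of experiment 1 and at 0.984 with the control of experiment 1, against 0.963 with its own control. In experiment 1 the bystander and control arrays correlated at 0.989, in experiment 3 at 0.979 and in experiment 4 at 0.952, while the control of experiment 4 correlated at 0.97 with the control of experiment 3. The SD of the log2 ratios of bystander to control was 0.388 in experiment 1, 0.719 in experiment 2, 0.554 in experiment 3 and 0.868 in experiment 4. A mean of 4 ratios gives each experiment the same weight, so the wider ratios of experiments 2 and 4 can move it more. The ratios of one experiment correlated with those of another at between -0.108 and 0.327, as a description over probes that share arrays and scaling. Bystander and control arrays lay on the same slide in experiments 1 and 4 and on different slides in experiments 2 and 3. The control of experiment 2 also stood apart, at 0.947 with its own irradiated array and 0.949 with the control of experiment 1. The irradiated array of experiment 2 correlated at 0.983 with bystander array 1 and at 0.981 with bystander array 2. Before scaling, the 75th percentile of bystander array 2 minus that of its control was -1.03 in log2. The identity of these arrays was not tested, so the ratios of experiment 2 and the paired p-values hold only if the labels are right. The main results are given by experiment, and the counts of the main lists also without the bystander array of experiment 2.

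At 24 hours no probe passed an adjusted p of 0.10 between bystander and control cells. The smallest adjusted p was 0.104 by limma, with Benjamini-Hochberg adjustment over 25246 probes, and percent called was 0. An unadjusted limma p below 0.05 was found for 2814 probes, 11.1% of those tested, of which 1244 were higher (4.93%) and 1570 lower (6.22%) in bystander cells. Over genes the same limit took 673 higher (5.12%) and 939 lower (7.14%), and the median log2 ratio of all genes was -0.03. The ratio had the same sign in 4 of 4 experiments with a mean of at least 1.5-fold for 628 higher probes (2.49%) and 647 lower ones (2.56%). The 4 bystander arrays did not overlap the 4 control arrays for 797 probes (3.16%). Without the bystander array of experiment 2, no probe passed and 2260 had an unadjusted p below 0.05, and with the experiments left unpaired these counts were 0 and 910. With the irradiated arrays left out of the fit, so that it held the 8 bystander and control arrays only, no probe passed, the smallest adjusted p was 0.504, and 1924 probes had an unadjusted p below 0.05, 881 higher and 1043 lower (3.38% of genes higher and 4.63% lower). Bystander and irradiated arrays of an experiment come from the same dishes and correlated at 0.994, 0.981, 0.991 and 0.991 in experiments 1 to 4. The spread of the 12-array fit thus mixes these close pairs with the wider pairs of bystander and control arrays. Its standard errors and intervals for bystander against control can be too narrow and its p-values too small. All genes below are therefore described by their values, and none is called.

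**Figure D1:**
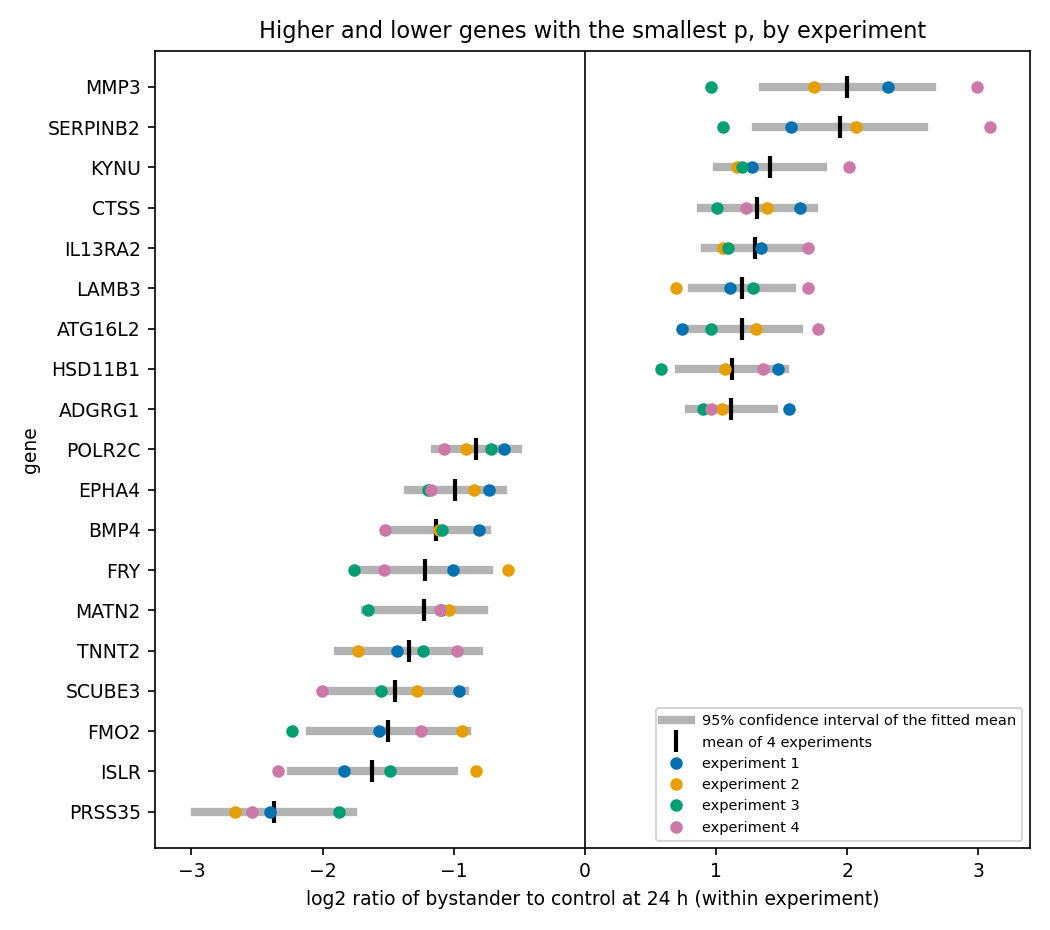
Log2 ratio of bystander to control within each experiment (points), the mean of 4 experiments (black bar) and its 95% confidence interval from the limma fit (grey) for 19 of the 20 genes with the smallest p, 10 in each direction, among those with 1 sign in 4 of 4 experiments and at least 1.5-fold. PRSS35 lies between -2.66 and -1.88 in every experiment, and for MMP3 and SERPINB2 experiment 4 is the highest and experiment 3 the lowest.

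PRSS35, a gene for a secreted protein of the serine protease family, had the smallest p of all probes and the lowest ratio among the 20 genes at the top of the ranking. Its level (probe A_23_P42397) was 5.0, 5.08, 5.74 and 5.68 on bystander arrays 1 to 4 and 7.39, 7.75, 7.62 and 8.22 on the paired controls. The groups did not overlap, which held for 3.39% of all genes, and the lowest control stood more than 1 log2 unit above the highest bystander array. The mean log2 ratio was -2.37 ± 0.27 (SE of the fit, 4 experiments; 95% interval -2.97 to -1.77), with an adjusted p of 0.104. The errors given with ± are limma's moderated standard errors, which pool the spread of the 12 arrays and information across probes, and are not the standard errors of the 4 ratios. The SD of the 4 ratios of PRSS35 was 0.35 (n = 4). Directly irradiated cells had 5.08, 5.12, 6.54 and 5.51, and the irradiated level minus the bystander level was 0.19 (interval -0.42 to 0.79). With normexp background correction in place of the scanner's own, the ratio was -1.40.

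The other genes at the low end of the ranking included signalling and matrix genes. BMP4, a bone morphogenetic protein that acts through SMAD transcription factors, read 11.04, 11.06, 10.18 and 10.35 on the bystander arrays and 11.84, 12.17, 11.27 and 11.87 on the controls, without overlap. Its mean log2 ratio was -1.13 ± 0.17 (SE of the fit, 4 experiments; adjusted p = 0.144). EPHA4, an ephrin receptor tyrosine kinase, gave -0.99 (adjusted p = 0.144), and its 3 probes pointed the same way. SCUBE3, a secreted protein with EGF-like repeats, gave -1.45, and ISLR, a secreted leucine-rich repeat protein of mesenchymal cells, gave -1.62. MATN2, a matrix adaptor protein of the matrilin family, gave -1.22, and FMO2, a lung monooxygenase, gave -1.50. TNNT2, cardiac troponin T, gave -1.34, and FRY, a large scaffold protein linked to cytoskeletal kinases, gave -1.22. POLR2C, a subunit of RNA polymerase II, had the smallest ratio of the 10 at -0.83, and its bystander arrays (9.95, 9.83, 9.81 and 9.70) all lay below its controls (10.56, 10.73, 10.53 and 10.77).

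Among the higher genes, KYNU had the smallest p. It encodes kynureninase, an enzyme of tryptophan breakdown that inflammatory cytokines are known to induce. The bystander arrays read 14.03, 14.17, 15.29 and 12.96 and the controls 12.76, 13.01, 14.10 and 10.95. The groups overlapped because experiments 3 and 4 differ in level, but each bystander array exceeded its own control, by 1.41 ± 0.18 on average (SE of the fit, 4 experiments; interval 1.01 to 1.81, adjusted p = 0.104). A second KYNU probe gave 1.52. ADGRG1, an adhesion G protein-coupled receptor, read 10.67, 10.55, 10.98 and 10.01 in bystander cells and 9.11, 9.50, 10.07 and 9.05 in controls. Its mean was 1.11 ± 0.15 (SE of the fit, 4 experiments; adjusted p = 0.104), and its second probe gave 0.82.

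IL13RA2, a decoy receptor for interleukin 13, gave a mean log2 ratio of 1.30 ± 0.17 (SE of the fit, 4 experiments; adjusted p = 0.104), between 1.05 and 1.70 in the 4 experiments. LAMB3, a laminin chain of the basement membrane, gave 1.20, and CTSS, the lysosomal protease cathepsin S, gave 1.31, both with an adjusted p of 0.124. HSD11B1, the enzyme that regenerates active cortisol from cortisone, gave 1.12, and ATG16L2, a relative of an autophagy protein, gave 1.19.

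**Figure D2:**
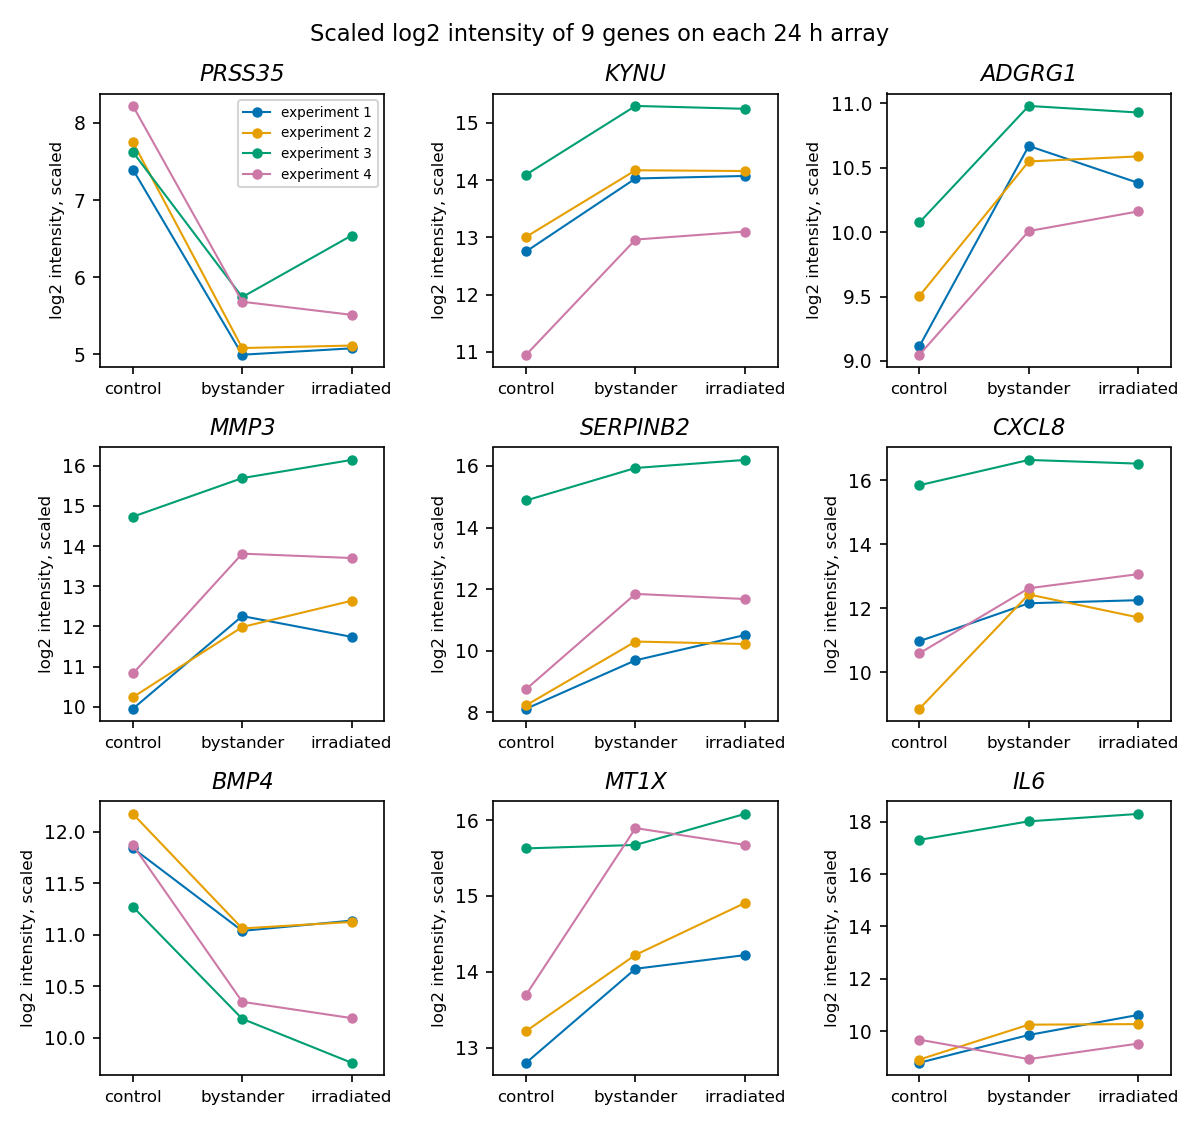
Scaled log2 intensity (each array's 75th percentile at 10) of 9 genes on the 12 arrays of 24 hours, with 1 line for each experiment joining its control, bystander and irradiated arrays. Experiment 3 stands above the others for SERPINB2, CXCL8 and IL6 in every treatment, and bystander and irradiated arrays of an experiment lie closer to each other than to the control for PRSS35 and KYNU.

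Inflammatory cytokines and chemokines and the metallothioneins had the largest shares of higher members among the 26 lists. Of 29 genes on the list 19 passed the filter on dim probes, 12 of the 19 were higher and 1 lower at an unadjusted p below 0.05, and none was called. The median log2 ratio of the 19 was 0.81, against -0.03 for all genes. In the main setting 5.12% of all genes were higher and 7.14% lower, the shares to set beside each list below. Without the bystander array of experiment 2 the counts were 9 higher and 2 lower, without experiment 4 they were 14 and 0, without experiment 3 they were 8 and 0, in unscaled values 4 and 2, in the 8-array fit 10 and 1, and without the pairing 0 and 0. The medians were 0.76, 0.61 and 0.79 in experiments 1, 2 and 3 and -0.42 in experiment 4, so the experiments did not share 1 direction.

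CXCL8, or interleukin 8, a neutrophil attractant, read 12.16, 12.43, 16.64 and 12.63 in bystander cells and 10.97, 8.86, 15.85 and 10.60 in controls. Its mean log2 ratio was 1.89 ± 0.39 (SE of the fit, 4 experiments; adjusted p = 0.284), and the ratio of experiment 2 was 3.57 against 0.79 in experiment 3, with an SD of 1.23 over the 4 ratios (n = 4). Without the bystander array of experiment 2 the mean was 1.51. Experiment 3 stood far above the other experiments in both groups. TSLP, an epithelial-type cytokine that acts on dendritic cells, gave 1.11 (adjusted p = 0.181), with ratios from 0.59 to 1.70. IL33, an alarmin of the interleukin 1 family, gave 1.32 (adjusted p = 0.365), but its ratio ran from 0.06 in experiment 2 to 3.02 in experiment 4. IL1B, the secreted interleukin 1β, gave 0.71 with ratios from 0.37 to 1.17.

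Other chemokines that attract neutrophils through CXCR2 are given next. CXCL5, higher in 4 of 4 experiments, gave 1.18 from its brighter probe and 1.60 (adjusted p = 0.104) from its dimmer one, and the brighter probe gave 0.97 without the bystander array of experiment 2. CXCL3 gave 1.09 and CXCL2 gave 0.90, and for both the bystander array of experiment 4 lay below its control, with ratios of -0.20 and -0.60. IL6, the main inducer of acute-phase proteins, read 9.85, 10.24, 18.02 and 8.93 in bystander cells and 8.79, 8.91, 17.31 and 9.67 in controls. Its ratio was 0.59 (interval -0.10 to 1.28, adjusted p = 0.488), higher in 3 of 4 experiments. CXCL12, a homeostatic chemokine that fibroblasts secrete, lay below its control in 4 of 4 experiments by its brightest probe, with a mean of -0.74, while another of its 3 probes gave 0.18. CCL11, an attractant of eosinophils, had ratios of 0.07, 0.94, -3.09 and -6.38 in experiments 1 to 4.

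Some of these genes carry a known type of NF-kB element close to their start. The motif GGNNTTTCC, searched on both strands, was present in 6.5% of the 300-base promoters of 10297 tested genes (250 bases before and 50 after the start), and in 7 of 15 promoters found for the cytokine list. It was also in 8 of 17 promoters of the NF-kB list and in none of the 13 promoters found for the 20 genes with the smallest p. Promoter sequences were those of RefSeq on GRCh38.p14, shown for the CXCR2 chemokines, CXCL8, IL6 and BIRC3 because these letters recur across genes whose ratios differed. Each stretch of 60 bases is written 5′ to 3′ on the strand of the gene, with the matches in capitals.
CXCL8, chr4:73740453-73740512, plus strand: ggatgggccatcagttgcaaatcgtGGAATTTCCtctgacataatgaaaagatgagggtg
CXCL5, chr4:73998733-73998792, minus strand: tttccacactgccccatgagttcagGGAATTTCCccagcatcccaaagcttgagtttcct
CXCL2, chr4:74099238-74099297, minus strand: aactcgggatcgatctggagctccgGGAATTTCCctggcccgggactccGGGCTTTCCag
CXCL3, chr4:74038733-74038792, minus strand: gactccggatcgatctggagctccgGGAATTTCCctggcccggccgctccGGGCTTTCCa
IL6, chr7:22727103-22727162, plus strand: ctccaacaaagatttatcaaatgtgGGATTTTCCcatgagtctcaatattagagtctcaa
BIRC3, chr11:102317260-102317319, plus strand: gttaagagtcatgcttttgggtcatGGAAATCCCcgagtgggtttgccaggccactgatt
A match describes the letters only, and no binding was measured here.

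NF-kB subunits and their feedback inhibitors had 7 of 19 tested members higher and 0 lower at an unadjusted p below 0.05, with a median log2 ratio of 0.38. The medians by experiment were 0.30, 0.03, 0.90 and 0.04, and the list median was 0.14 without experiment 3. The count was 3 higher without experiment 3, 3 with slide as a fixed block, 1 in unscaled values, 1 in experiments 1 and 4 only, 6 in the 8-array fit, and 0 without the pairing. BIRC3, an inhibitor of apoptosis that NF-kB induces, read 6.25, 6.49, 12.21 and 8.16 in bystander cells and 5.14, 5.69, 11.10 and 5.27 in controls, a mean log2 ratio of 1.48 ± 0.30 (SE of the fit, 4 experiments; adjusted p = 0.284). The SD of its 4 ratios was 0.95 (n = 4). RELB, the subunit of the slower non-canonical arm, gave 0.64, with the largest ratio in experiment 1. RELA, the main activating subunit, gave -0.31 and BCL3, a nuclear co-regulator, gave -0.45, neither with an unadjusted p below 0.05. SOD2, the mitochondrial superoxide dismutase and a common target, was higher in experiments 1, 2 and 3 by 1.03, 0.74 and 0.80 and lower in experiment 4 by a log2 ratio of -0.85.

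Prostaglandin genes showed no shared direction. Of 13 tested members 2 were higher and 3 lower (4 and 1 without experiment 4, 1 and 1 without experiment 3 or in the 8-array fit). PLA2G4A, the cytosolic phospholipase that frees arachidonic acid, had ratios of 0.83, 0.71, 0.95 and 0.63 and a mean of 0.78 (adjusted p = 0.223). PTGS2, or cyclooxygenase 2, the inducible enzyme of prostaglandin synthesis, read 10.91, 11.21, 16.62 and 9.57 in bystander cells and 11.12, 11.33, 15.67 and 8.34 in controls. It was higher in 2 of 4 experiments, with a mean of 0.46 (interval -0.40 to 1.32, adjusted p = 0.643). PTGIS, prostacyclin synthase, gave -0.66 and PTGS1, the constitutive cyclooxygenase, gave -0.49, while the receptor PTGFR gave 0.57.

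Metallothioneins are small cysteine-rich proteins that bind zinc and copper. In the list of metallothioneins and zinc handling genes 11 of 17 tested members were higher and 0 lower at an unadjusted p below 0.05. The median log2 ratio was 0.83, with 0.81, 1.00 and 1.44 in experiments 1, 2 and 4 and 0.06 in experiment 3. MT2A, the most abundant form in many human cells, read 16.89, 17.44, 17.77 and 17.69 in bystander cells and 16.07, 16.33, 17.63 and 16.70 in controls, a mean of 0.76 ± 0.19 (SE of the fit, 4 experiments; adjusted p = 0.329). MT1X gave 1.12, MT1E 1.09, MT1L 1.18 and MT1B 1.17, and in experiment 3 these 4 genes had ratios from -0.04 to 0.14. MT1M and MT1F, chosen after their values were seen, had -0.57 and -0.46 in experiment 3. The control array of experiment 3 was already at 15.63 for MT1X, against 12.80, 13.22 and 13.70 on the other controls. The metallothionein 1 genes are near-identical copies, so their probes may share transcripts and are not separate observations. SLC30A1, the zinc exporter that is induced with metallothioneins, gave -0.35 (-0.02 without experiment 3, where its ratio was -1.34) and the importer SLC39A1 gave -0.45. Without the bystander array of experiment 2 the count was 9 of 17, without experiment 4 it was 8, in the 8-array fit 11, and without the pairing 1. The motif TGCGCNC was in 3 of 9 promoters found for this list (33.3%), against 30.8% of the promoters of tested genes.

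MMP3, or stromelysin 1, an enzyme that cleaves matrix proteoglycans and activates collagenases, read 12.26, 11.99, 15.69 and 13.81 in bystander cells and 9.95, 10.24, 14.73 and 10.83 in controls. Its mean log2 ratio was 2.00 ± 0.29 (SE of the fit, 4 experiments; interval 1.35 to 2.65, adjusted p = 0.124). MMP1, the interstitial collagenase, read 13.97, 14.12, 16.42 and 15.63 against 13.00, 13.37, 15.42 and 12.90, a mean of 1.36 ± 0.29 (SE of the fit, 4 experiments; adjusted p = 0.287). For both genes the ratio was largest in experiment 4, and the SD of the 4 ratios was 0.86 for MMP3 and 0.92 for MMP1 (n = 4). Of 14 tested metalloproteinases and inhibitors 4 were higher and 0 lower, and the list median was -0.04, close to that of all genes. Without experiment 3 the counts were 3 higher and 2 lower, in the 8-array fit 3 and 1, and without the pairing 0 and 0. MMP14, a membrane-bound metalloproteinase, gave -0.96 and the gelatinase MMP2 gave -0.37, neither with an unadjusted p below 0.05.

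SERPINB2, an inhibitor of urokinase and of tissue plasminogen activator, read 9.69, 10.30, 15.93 and 11.85 in bystander cells and 8.12, 8.23, 14.88 and 8.76 in controls. Each bystander array exceeded its control, by 1.94 ± 0.29 (SE of the fit, 4 experiments; adjusted p = 0.124), and a second probe gave 2.13. The SD of its 4 ratios was 0.87 (n = 4). TFPI2, a secreted inhibitor of plasmin and other serine proteases, gave 0.70 from its brightest probe and 1.18 (adjusted p = 0.124) from the dimmer one. In the plasminogen activator list 6 of 13 tested members were higher and 0 lower, with a median of 0.39 and medians above 0 in 4 of 4 experiments. Without the bystander array of experiment 2 the count was 5, without experiment 3 it was 3 with 1 lower, without experiment 4 it was 4 with 1 lower, in unscaled values 3, in the 8-array fit 5, and without the pairing 1. The AP-1 motif TGANTCA was found in 4 of 10 promoters of this list and in 4.5% of the promoters of tested genes. It was found in 1 of 5 promoters of the metalloproteinase list. It is shown, in capitals, for the 2 inhibitors described.
SERPINB2, chr18:63887578-63887637, plus strand: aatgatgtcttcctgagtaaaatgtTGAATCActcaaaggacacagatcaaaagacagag
TFPI2, chr7:93890806-93890865, minus strand: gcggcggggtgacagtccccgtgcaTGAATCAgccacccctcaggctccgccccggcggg

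Smooth muscle contractile genes, which mark the contractile state of fibroblasts, had the largest share of lower members among the 26 lists of genes other than markers. Of 19 tested 9 were lower and 0 higher at an unadjusted p below 0.05, against 7.14% of all genes lower, and the median log2 ratio was -0.62 (6 lower in unscaled values and with slide as a fixed block). The experiments' medians were -0.44, -0.60, -1.18 and -0.02, and in experiment 4 the members lay on both sides of their controls. DES, the intermediate filament desmin, gave -0.76 (adjusted p = 0.329), and MRTFA, listed on the array as MKL1, a coactivator of serum response factor, gave -0.72. MYH11, smooth muscle myosin heavy chain, read 9.98, 9.95, 6.07 and 10.35 in bystander cells and 10.97, 11.44, 10.29 and 10.89 in controls, with a ratio of -4.22 in experiment 3. ACTA2, smooth muscle actin, had ratios of -1.16, -0.94 and -2.10 in experiments 1, 2 and 3 and 0.70 in experiment 4. MYH11, ACTA2, ACTG2 and MYLK are described here after their values were seen. Without the bystander array of experiment 2 the count was 7 of 19, without experiment 3 it was 5, without experiment 4 it was 13, in the 8-array fit 6, and without the pairing 1.

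The CArG box, which serum response factor binds, was searched by its consensus and was found in 4 of 14 promoters of the contractile list and in 1.1% of the promoters of tested genes. ACTG2, enteric smooth muscle actin, had ratios of -0.58, -0.71, -3.60 and -0.17 in experiments 1 to 4. MYLK, myosin light chain kinase, had ratios of -0.23, -0.01, -1.18 and -1.05. Shown in capitals are 1 of the 2 ACTG2 matches, that further from the gene start, and the only MYLK match.
ACTG2, chr2:73892873-73892932, plus strand: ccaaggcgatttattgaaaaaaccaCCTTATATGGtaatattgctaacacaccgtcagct
MYLK, chr3:123620608-123620667, minus strand: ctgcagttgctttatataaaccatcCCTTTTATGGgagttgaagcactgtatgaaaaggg

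Of 29 tested collagens and matrix genes 10 were lower and 2 higher, and the median log2 ratio was -0.17, between -0.42 and -0.09 in the 4 experiments. COL5A1, a chain of the type V collagen that sets fibril width, read 12.67, 12.72, 11.45 and 12.29 in bystander cells and 13.15, 13.23, 12.60 and 13.29 in controls, a mean of -0.79 ± 0.17 (SE of the fit, 4 experiments; adjusted p = 0.287). FKBP10, a chaperone of collagen folding, had ratios of -0.18, -2.29, -1.85 and -3.02 and a mean of -1.84 (adjusted p = 0.340). COL7A1, the collagen of anchoring fibrils, went the other way, at 11.49, 11.37, 12.27 and 11.34 against 10.39, 11.03, 11.06 and 9.47, a mean of 1.13 (adjusted p = 0.236). POSTN, the matrix protein periostin, gave 0.59, higher in 3 of 4 experiments. Of the 12 fibroblast markers, several of which are also matrix genes, 6 were lower and 0 higher (2 lower without experiment 3, 3 without experiment 4, 8 without experiment 2, 4 in the 8-array fit and 2 without the pairing), and their part in the other results was not tested. The matrix count was 8 lower and 1 higher in the 8-array fit, 4 lower and 3 higher without experiment 1, 6 and 1 without experiment 3, 6 and 1 in unscaled values, and 3 and 1 without the pairing.

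**Figure D3:**
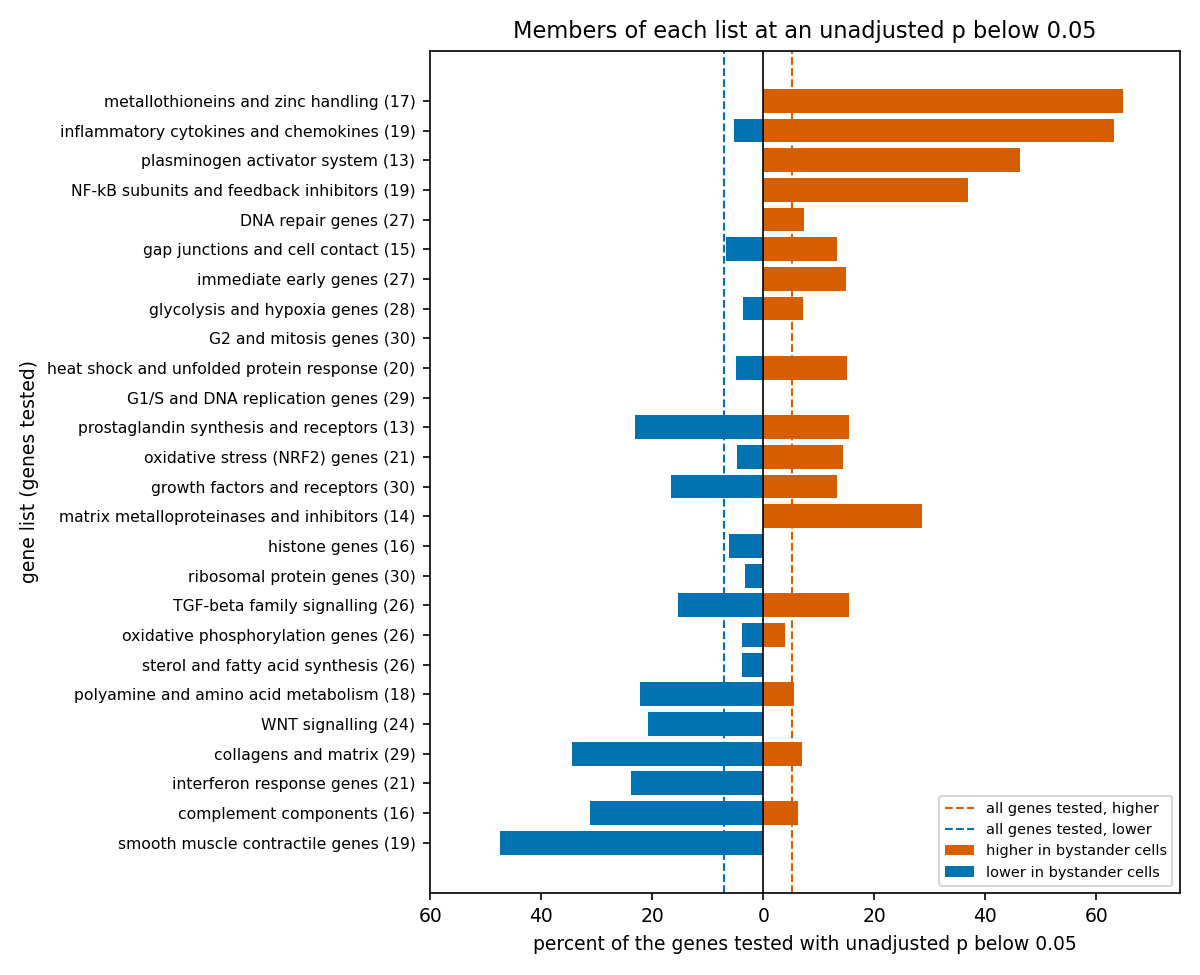
Share of the tested members of 26 gene lists with an unadjusted limma p below 0.05, higher to the right and lower to the left of 0, with the number tested in brackets and the share over all genes as dashed lines (5.12% higher, 7.14% lower). Metallothioneins (11 of 17) and inflammatory cytokines (12 of 19) reach furthest to the right, smooth muscle contractile genes (9 of 19) furthest to the left, and the G1/S and G2 lists have no bar.

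Members of the TGF-beta family lay on both sides of their controls, with 4 of 26 higher and 4 lower (2 and 3 without experiment 3). BMP2, a sister ligand of BMP4, read 9.07, 8.82, 11.23 and 9.74 in bystander cells and 7.54, 7.78, 10.75 and 6.94 in controls, a mean log2 ratio of 1.46 ± 0.34 (SE of the fit, 4 experiments; adjusted p = 0.329). BMP2 and BMP4 thus lay on opposite sides of their controls in 4 of 4 experiments. INHBA, the subunit of activin A, gave 0.99, higher in 3 of 4 experiments, and SMAD6, a feedback inhibitor of BMP signalling, gave -1.01.

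WNT genes had 5 of 24 members lower and 0 higher, against 7.14% of all genes lower and 5.12% higher. The count was 4 lower in unscaled values and in the 8-array fit and 3 without the pairing. Without experiment 2 it was 7 lower and 1 higher. FRZB, a secreted antagonist, gave -0.88 and the receptor FZD2 gave -0.73, while DKK1, another antagonist, had ratios of 0.25, 0.10, 0.20 and 3.25. Growth factors and receptors had 4 of 30 higher and 5 lower (1 and 3 without experiment 3, 2 and 5 without the bystander array of experiment 2). EGFR, the epidermal growth factor receptor, gave 0.50 and FGF7, keratinocyte growth factor, gave 0.56, each higher in 4 of 4 experiments, and FGF7 gave 0.37 without the bystander array of experiment 2. IGF1, insulin-like growth factor 1, gave -0.96 without overlap of the groups, and PDGFRB, a receptor for platelet-derived growth factor, gave -0.73.

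Interferon response genes had 5 of 21 tested members lower and 0 higher, with a median log2 ratio of -0.31. The 5 were IRF9, a subunit of the factor that interferon activates, at -0.61, MX2 at -0.75, USP18 at -1.04, IFIT1 at -1.44 and BST2 at -0.70. IFIT1, an antiviral protein that binds viral RNA, read 11.61, 11.67, 8.28 and 9.09 in bystander cells and 11.61, 12.08, 10.92 and 11.79 in controls, so that experiment 1 showed no difference at this precision and experiment 4 had a ratio of -2.70. USP18, IFIT1 and BST2 were named after their values were seen. Without experiment 4 the count was 3 of 21 and the list median -0.12, and without the pairing the count was 2. The list medians were -0.05, -0.26, -0.29 and -0.72 in experiments 1 to 4. Complement genes had 5 of 16 lower and 1 higher, and 2 lower without experiment 4. C7, a component of the membrane attack complex, gave -1.50 from its brighter probe and -2.57 from the other, and CFI, the protease that inactivates C3b, gave -1.45, but the CFI value of the bystander array of experiment 3 lay at the intensity floor. C3, the central component, was higher by 1.48, 1.21 and 1.30 in experiments 1, 2 and 3 and was at -0.46 in experiment 4.

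Stress genes were mixed. Of 27 immediate early genes 4 were higher and 0 lower, against 3 and 4 without experiment 3, 0 and 2 in experiments 1 and 4 only, and 0 and 0 without the pairing. Among the 4 were the nuclear receptor NR4A2 at 0.61 and the ERK phosphatase DUSP5 at 0.81. FOSL2, an AP-1 subunit, gave -0.41 and EGR2, a zinc finger factor, gave -0.79, neither with an unadjusted p below 0.05. Of 21 oxidative stress genes 3 were higher and 1 lower (5 and 1 without experiment 4). SLC7A11, the cystine importer that feeds glutathione synthesis, read 12.03, 12.35, 12.23 and 11.84 in bystander cells and 11.70, 11.06, 11.12 and 10.52 in controls, without overlap, a mean of 1.01 (adjusted p = 0.307). TXNRD1, thioredoxin reductase, gave 0.68, with ratios of 0.25, 0.41, 0.44 and 1.62 in experiments 1 to 4. GPX1, glutathione peroxidase 1, gave -0.40. Of 20 heat shock and unfolded protein genes 3 were higher and 1 lower. The counts were 1 and 1 in the 8-array fit, 0 and 0 in unscaled values or without the pairing, and 5 and 1 with normexp background. The mitochondrial chaperonins HSPE1 and HSPD1 gave 0.41 and 0.40. The small heat shock protein HSPB1 gave -0.59, with ratios of -0.29, -0.52, -1.33 and -0.22 in experiments 1 to 4.

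Damage response genes are given singly and not all are reported, so they show no direction for the group. CDKN1A, the cyclin-dependent kinase inhibitor p21, read 12.95, 13.45, 13.79 and 13.72 in bystander cells and 12.79, 12.57, 14.10 and 14.36 in controls, a mean log2 ratio of 0.02 (interval -0.66 to 0.70). Its sign turned without scaling, with slide as a fixed block and when experiment 1 or 2 was left out, so it has no direction. GADD45A, a stress sensor that binds cell cycle kinases, had ratios of 0.47, 0.76, 0.56 and 0.58 and a mean of 0.59 ± 0.17 (SE of the fit, 4 experiments; adjusted p = 0.348). GDF15, a secreted stress cytokine, gave 0.54, higher in 3 of 4 experiments, PLK3, a polo-like kinase of the stress response, gave 0.67, and RRM2B, a ribonucleotide reductase subunit used in DNA repair, gave 0.72.

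Cell cycle genes differed between bystander and control cells in opposite directions in experiments 3 and 4. None of 30 tested G2 and mitosis genes and none of 29 G1/S genes had an unadjusted p below 0.05. Without experiment 4 there were 2 and 3 lower, in experiments 1 and 4 only 4 and 5 higher, without experiment 3 there was 1 higher on each list, and with slide as a fixed block 2 and 1 were higher, so the counts of 0 do not show that these genes did not differ. The median log2 ratio of the G2 and mitosis list was 0.01 in experiment 1, -0.19 in experiment 2, -1.19 in experiment 3 and 1.98 in experiment 4, more than 1 log2 unit from 0 in experiments 3 and 4. The G1/S list followed the same order, at 0.10, -0.05, -0.90 and 1.26. CENPF, a kinetochore protein made in G2 and chosen here as the list member with the smallest p, read 12.25, 12.37, 10.54 and 14.33 in bystander cells and 11.98, 12.26, 10.66 and 11.54 in controls. The DNA repair list had a median of 1.08 in experiment 4 and between -0.10 and 0.19 in the others. The part of these differences in the other results was not tested.

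**Figure D4:**
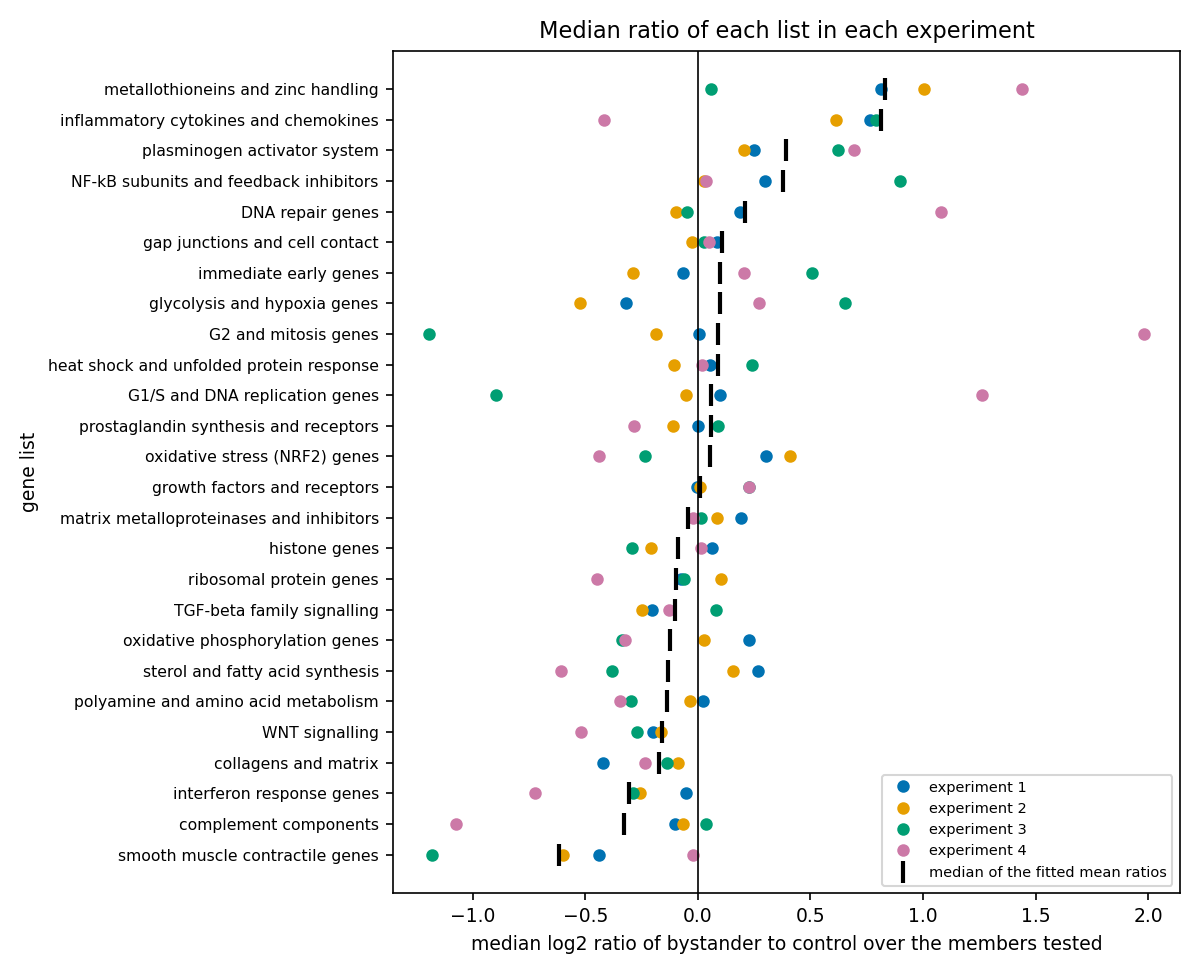
Median log2 ratio of bystander to control over the tested members of 26 gene lists in each experiment (points) and the median of the fitted mean ratios (black bar). The G2 and mitosis list runs from -1.19 in experiment 3 to 1.98 in experiment 4, and the inflammatory cytokines lie between 0.61 and 0.79 in 3 experiments and at -0.42 in experiment 4.

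Of 18 genes of polyamine and amino acid metabolism 1 was higher and 4 lower (1 and 2 without experiment 2), among them the serine synthesis enzymes PHGDH at -1.01 (adjusted p = 0.284) and PSAT1 at -0.57, while the spermine synthase SMS gave 0.54. Of 28 glycolysis and hypoxia genes 2 were higher and 1 lower (5 and 2 without experiment 2 or with slide as a fixed block, 0 and 3 in experiments 1 and 4 only), these being CA12, a carbonic anhydrase, at 0.69, the angiogenic factor VEGFA at 0.80 and the pyruvate kinase PKM, listed on the array as PKM2, at -0.44. The other 3 VEGFA probes gave between 0.25 and 0.42. Oxidative phosphorylation had 1 of 26 higher and 1 lower, ribosomal proteins 0 of 30 higher and 1 lower, sterol and fatty acid synthesis 0 of 26 higher and 1 lower, histones 0 of 16 higher and 1 lower, and DNA repair 2 of 27 higher and 0 lower. Over all genes 5.12% were higher and 7.14% lower, so these small counts lie near those shares and show nothing particular to these lists. Gap junction and cell contact genes, which carry part of the bystander signal, had 2 of 15 higher (13.3%) and 1 lower (6.67%). The counts were 0 and 0 without experiment 1, and 3 and 1 without experiment 4. GJB2, connexin 26, had ratios of 0.99, 0.68, 0.56 and 0.54 and a mean of 0.69 (adjusted p = 0.358), the cadherin CDH13 gave 0.44 and CDH11 gave -0.47.

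Directly irradiated cells of the same dishes were then set against the bystander cells. No probe passed an adjusted p of 0.10 for this contrast in limma, and 101 of 25246 probes (0.4%) had an unadjusted p below 0.05, of which 73 were higher in irradiated cells, but in unscaled values 2 of 72 were higher, so the split has no settled direction. About 5% would fall below 0.05 without any difference, so these p-values run large and the intervals wide. The fit uses 1 spread for all treatments. Bystander and irradiated arrays of an experiment differed by an SD of 0.298 to 0.506, and bystander and control arrays by 0.388 to 0.868. For KYNU, MMP3, SERPINB2 and BMP4, genes at the top of the bystander ranking, the difference was small against its interval. Another gene at the top, TNNT2, had a larger difference of 0.53 (interval -0.006 to 1.07). For KYNU it was 0.03 (interval -0.37 to 0.43), for MMP3 0.12 (interval -0.53 to 0.77), for SERPINB2 0.21 (interval -0.43 to 0.85) and for BMP4 -0.11 (interval -0.49 to 0.28). Among the damage response genes the difference was 0.80 for CDKN1A (interval 0.13 to 1.48), 0.65 for GDF15 (interval 0.20 to 1.10), 0.40 for GADD45A (interval 0.02 to 0.78), 0.30 for PLK3 (interval 0.02 to 0.58) and 0.26 for RRM2B (interval -0.13 to 0.65). CDKN1A read 14.70, 13.54, 14.24 and 14.64 in irradiated cells, above the bystander array in 4 of 4 experiments, and each of these 5 genes had an adjusted p of 1. A p that misses the threshold does not show that the treatments act alike.

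The same ratio at 4 hours came from other arrays and was set beside that of 24 hours. The change of the ratio between the 2 times was tested over the 24 arrays of both times. No probe passed an adjusted p of 0.10 by limma. An unadjusted p below 0.05 was found for 316 (1.25%, again under 5%), 118 upward and 198 downward. That split turned with normexp background (257 upward, 159 downward), without experiment 2 (195 and 143) and without experiment 4 (247 and 234), and in unscaled values it was 2 upward and 674 downward, so it has no settled direction. The study picked its responders at 4 hours in these same experiments, and several lists hold some of them, so a smaller ratio at 24 hours can follow from that choice, and the values are a description. PRSS35 had the smallest p of the change, with a log2 ratio of -0.26 at 4 hours and -2.37 at 24 hours (change -2.11, adjusted p = 0.172). PTGS2 was at 2.64 at 4 hours and 0.46 at 24 hours, a change of -2.18, and IL6 at 3.02 and 0.59, a change of -2.43, both with an adjusted p of 1. CXCL8 was at 3.33 and 1.89, CXCL3 at 2.59 and 1.09, SERPINB2 at 3.12 and 1.94 and IL1B at 1.85 and 0.71. Other genes had nearly the same ratio at both times, among them MMP3 (1.95 and 2.00), KYNU (1.64 and 1.41), IL13RA2 (1.14 and 1.30) and BIRC3 (1.60 and 1.48). TNNT2 and IGF1 were near their controls at 4 hours (0.10 and -0.03) and lower at 24 hours (-1.34 and -0.96), with an adjusted p of 1 for both changes. The median of the cytokine list was 1.32 at 4 hours and 0.81 at 24 hours, with 6 members lower and 0 higher at an unadjusted p of the change below 0.05, and that of the metallothionein list 1.51 and 0.83.

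**Figure D5:**
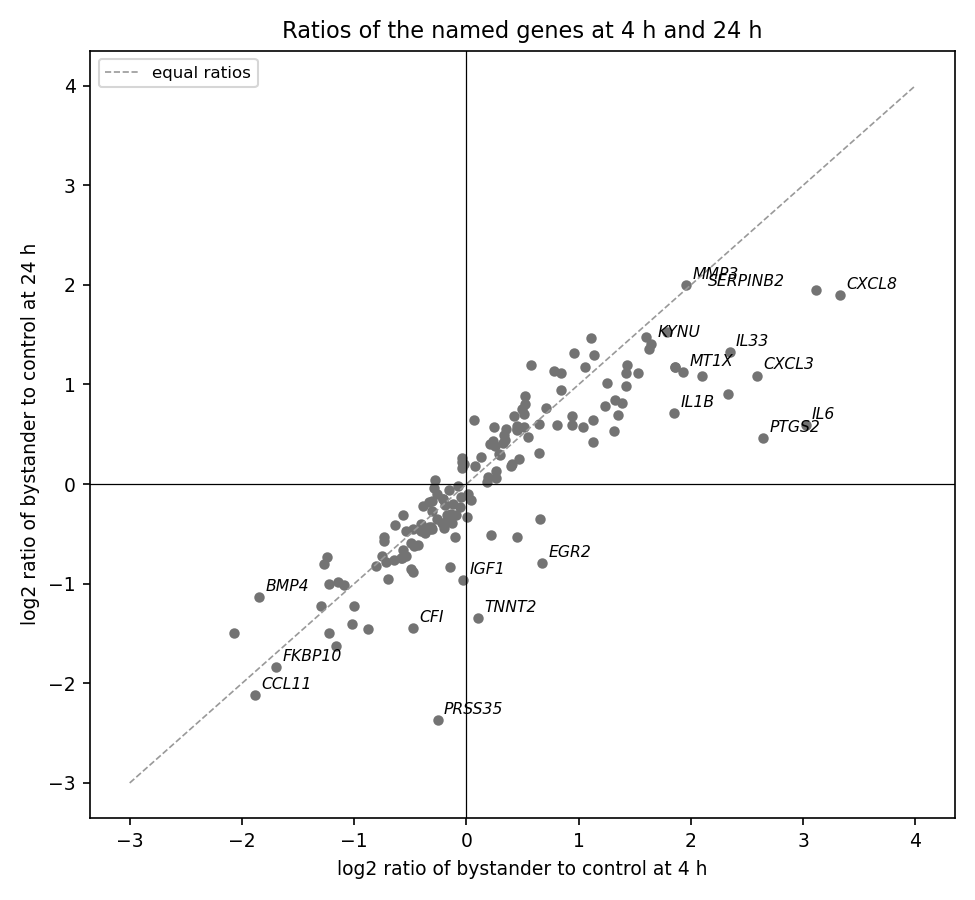
Mean log2 ratio of bystander to control at 4 hours (horizontal) and 24 hours (vertical) for 156 genes chosen by the rule for named genes, 1 point for each gene, with the line of equal ratios. PTGS2 and IL6 lie far below the line at the right, PRSS35 lies far below it near a 4 hour ratio of 0, and MMP3 lies on it.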

How the data were processed

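RNA of 72 IMR-90 cultures was hybridised to 1-colour Agilent whole human genome arrays. The authors deposited the scanner output, whose intensity per spot was background-subtracted and detrended by Agilent's Feature Extraction, and a table of log2 values that, on the arrays of 4 and 24 hours used here, matched the unscaled log2 of that intensity, with dim spots left blank. Here each array was scaled to a 75th percentile of log2 10, intensities were floored at 5, non-uniform spots were left out and spots of a probe averaged. A probe was kept if at most 10% of the 72 arrays had it dim or non-uniform, which left 25246. The 12 arrays of 24 hours were fitted with limma 3.58.1 (R 4.3.3), with treatment and experiment as terms, an intensity trend and Benjamini-Hochberg adjustment, calling an adjusted p below 0.10. The change from 4 to 24 hours used 24 arrays. On simulated data the fit called 94% of the probes with a true log2 change of 2 in either direction. It called 56% of those with a change of 1 and 60% of those with -1. The simulated arrays had an experiment effect and otherwise independent noise, so the closeness of arrays from the same dish was not tested.

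The replicate number marks an experiment whose cells came from 1 pool. As a check, deviations from the group means correlated above 0.1 in 12 of 12 pairs of arrays with the same number (median 0.49), against 5 of 36 with different numbers (median -0.224). P-values for bystander against control use the spread of the 12-array fit, which also holds the irradiated arrays of the same dishes. That spread is pooled with information across probes, so it is not the spread of the bystander to control ratios between experiments alone.

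Named were, by a written rule, the 10 genes with the smallest p in each direction among those with 1 sign in 4 of 4 experiments and at least 1.5-fold, up to 2 members in each direction and the most abundant member of each list, and responders that the study treats. A gene stands for its brightest probe. The members and lists were chosen with earlier results of these data known, and several lists hold genes that the study picked from these samples, so their directions are not independent evidence. Results of 1 gene list and of some single genes are not reported here. Alternatives covered the pairing, scaling, background correction, filter, intensity trend, slide, the authors' table and leaving out each experiment. Symbols follow RefSeq where an accession matched (25398 of 41000 probes), and the file's name otherwise.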

Additional observations from a re-analysis of the deposited data

Results flagged for a closer look

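In 13 of 131 groups of 4 experiments tested, 1 experiment stood far from the other 3, where chance gives about 5%. The log2 ratio of bystander to control in experiment 4 was 2.01 for KYNU, 2.90 for the apoptosis inhibitor BIRC3, 1.62 for TXNRD1, 2.73 for the collagenase MMP1 and 3.25 for the WNT antagonist DKK1, each above the other experiments. It was -0.85 for SOD2 and -0.46 for C3, each below them, and the list medians of experiment 4 were -0.42 for the inflammatory cytokines and -1.08 for complement. In experiment 3 MATN2 (-1.66) and SLC30A1 (-1.34) were apart, in experiment 1 EGFR (0.28) and in experiment 2 FGF7 (1.17).

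Among the 15754 probes that the filter on dim spots removed, 2 were well above background on 4 of 4 bystander arrays and 0 of 4 control arrays. Over the group means MS4A6E, of the MS4A membrane protein family, was at least 2.51-fold higher and LOC100127955 at least 1.80-fold higher in bystander cells. These bounds set the mean of the bright group against, per array, the higher of the lowest signal among probes well above background and the probe's own. The probes were picked by this pattern, so the direction of the group means follows from the choice. The bounds do not hold in each experiment. In experiment 4 LOC100127955 read 4.75 on the bystander array and 4.56 on the control, and in experiment 1 MS4A6E read 4.38 and 3.81. The opposite pattern was seen for 5 probes, among them ALPL, alkaline phosphatase, at least 2.09-fold lower over the groups, although in experiment 2 its bystander value (3.98) lay above its control (3.86).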

How the results depend on the processing

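The count of called probes was 0 in the main setting and 0 whichever experiment was left out. It was 12 without scaling (2 higher, 10 lower), 3 with the 75th percentile taken over kept probes, 3 from the authors' table, 1 without the intensity trend and 5 with slide as a fixed block. PRSS35 was among the called probes in each of these settings except slide as a fixed block. Probes with an unadjusted p below 0.05, 2814 in the main setting, were 910 without the replicate block, 641 unscaled, and 1493 to 3582 with 1 experiment left out (1493 without experiment 3, 1582 without experiment 4). Without scaling the median ratio of all probes shifted to -0.165, so signs of list medians near 0 turned. For irradiated against bystander cells, 101 in the main setting, the counts were 22 without the replicate block, 614 without the filter, 179 with slide as a fixed block, 305 in experiments 1 and 4 only, and 34 to 243 with 1 experiment left out (34 without experiment 3, 187 without experiment 2, 243 without experiment 4). For the change from 4 hours, 316 in the main setting, they were 71 without the replicate block, 676 unscaled (674 downward), and 325 to 481 with 1 experiment left out, and 0 to 3 probes were called (3 without experiment 3). Of 1895 other values for 100 genes 1889 kept their direction. The 6 that reversed were all CDKN1A, at -0.14 unscaled, -0.18 with slide as a fixed block, -0.02 without experiment 1, -0.26 without experiment 2, -0.24 in experiments 1 and 4 only and -0.24 without the bystander array of experiment 2. With 1 experiment left out CDKN1A ranged from -0.26 to 0.24. The settings of experiments 1 and 4 only and without that bystander array were chosen after seeing the data. The cause of these differences was not tested.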
